A study of Mus musculus with 22 samples.

Results

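Bcl6, Cux2 and their partner regulators are 10 transcription regulators known to act on liver genes that follow the pattern of growth hormone (GH) in blood: Bcl6, Cux2, Tox, Trim24, Onecut1, Foxa1, Foxa2, Foxa3, Cebpa and Cebpb. They were found on the arrays by the RefSeq accession or gene name of each probe, which gave 12 probes of 41174 (1 for each gene, with an extra probe for Tox and for Cebpb), or 10 of 33767 gene names. All 10 passed the filter on dim probes and stood among the 26191 gene names tested. The list was chosen by what is known of these genes and by values in these data: Bcl6, Cux2, Tox and Trim24 were selected on their log2 ratio between sham males and sham females, so that ratio is described here and not tested.

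The pituitary of male rodents releases GH in pulses, and that of females releases it almost continuously. Liver cells read the pattern through the GH receptor and the transcription factor STAT5, and switch between male-type and female-type sets of enzymes, transporters and secreted proteins. BCL6 is a zinc finger repressor whose DNA site resembles that of STAT5, and CUX2 is a homeodomain repressor known as a female-biased regulator in mouse liver. TOX is a high-mobility-group box protein best known from T cell development, TRIM24 a nuclear receptor cofactor, ONECUT1 (HNF6) a GH-responsive cut-homeodomain factor, FOXA1 to FOXA3 forkhead factors that open liver chromatin, and C/EBP alpha and beta basic leucine zipper factors of hepatocyte and acute-phase genes.

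The study asked how liver RNA of each sex responds to loss of the pituitary and to early GH signals. All mice were of the ICR strain and 8 weeks old by the labels, and 10 groups were used: Hypox males (6 mice) and Hypox females (7), in which the pituitary had been removed in adulthood; Hypox males and females killed 30 min after 1 GH injection (7 and 7), 90 min after 1 injection (7 and 7), or 30 min after the later of 2 injections, 4 h having passed between them (8 and 6); and males (7) and females (8) that had sham surgery and vehicle injections, which the sample labels call untreated. Liver RNA was pooled from 2 to 5 mice, and 11 pairs of groups were hybridised to 2-colour Agilent whole mouse genome arrays, each pair on 2 arrays of opposite dye. Pools of a group could share mice between arrays, as the Hypox male pools set against 2 injections did with 5 and 5 of 6 mice, so p-values measure the spread between these arrays only.

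Across the 22 arrays, 57.1% to 77.7% of probes were well above background in a channel, and ratios of the paired arrays correlated between 0.007 (Hypox males against Hypox females, both 30 min after GH) and 0.84 (Hypox males against sham males). Y-linked genes (Ddx3y, Eif2s3y, Kdm5d, Uty) read 5.91 to 6.28 in all 4 channels of the arrays for females given 2 injections, against a lowest male value of 9.22 anywhere, so both channels of those arrays read as female, as the sample labels have it; the series' design text names male Hypox there. The Hypox channels of the 2-injection arrays stood apart for several of the regulators. Bcl6 read 12.93 and 13.10 in the Hypox male channels of these arrays, and between 12.19 and 12.41 in the 8 Hypox male channels of other arrays. In females the Bcl6 values were 13.27 and 13.35, with 12.34 to 12.71 in the 8 others. These 2 channels lay outside the range of the 8 others for 6 of 10 regulators in males and 5 of 10 in females. Results after 2 injections are therefore given with their own paired channels and, for most members, also against the Hypox channels of the other arrays, a choice made after seeing the data and with no test.

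Promoter windows (the 250 bases before each annotated start, RefSeq, build GRCm38.p6) were available for 9 of the 10 regulators as 14 windows, with none for Tox. They were searched on both strands for the STAT5 and BCL6 core TTCNNNGAA, the CUX and ONECUT core ATCGAT, the forkhead core TGTTTNC and the C/EBP core TTGCNNAA. The windows below are those in which any motif was found, read 5′ to 3′ on the gene's strand, with the matching letters in capitals. Both Bcl6 windows lie on the minus strand at chr16:23981284-23981533 and chr16:23988853-23989102, the Cux2 window on the minus strand at chr5:122047826-122048075, and the Foxa1 window on the minus strand at chr12:57546112-57546361.
Bcl6 window 1: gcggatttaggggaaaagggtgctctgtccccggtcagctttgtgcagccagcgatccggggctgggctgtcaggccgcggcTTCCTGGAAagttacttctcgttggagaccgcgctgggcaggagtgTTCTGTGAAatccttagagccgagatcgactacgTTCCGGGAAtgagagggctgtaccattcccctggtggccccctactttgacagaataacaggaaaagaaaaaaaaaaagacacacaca
Bcl6 window 2: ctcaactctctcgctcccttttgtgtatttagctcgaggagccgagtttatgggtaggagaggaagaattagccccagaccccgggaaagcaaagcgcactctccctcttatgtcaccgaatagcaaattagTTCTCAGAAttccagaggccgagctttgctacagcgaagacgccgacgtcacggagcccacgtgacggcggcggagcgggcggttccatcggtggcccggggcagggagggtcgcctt
Cux2 window 1: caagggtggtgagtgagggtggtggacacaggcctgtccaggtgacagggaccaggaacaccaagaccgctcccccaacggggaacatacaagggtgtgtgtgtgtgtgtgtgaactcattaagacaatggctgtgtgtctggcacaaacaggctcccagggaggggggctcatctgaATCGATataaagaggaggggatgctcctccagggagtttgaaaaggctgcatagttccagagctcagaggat
Foxa1 window 1: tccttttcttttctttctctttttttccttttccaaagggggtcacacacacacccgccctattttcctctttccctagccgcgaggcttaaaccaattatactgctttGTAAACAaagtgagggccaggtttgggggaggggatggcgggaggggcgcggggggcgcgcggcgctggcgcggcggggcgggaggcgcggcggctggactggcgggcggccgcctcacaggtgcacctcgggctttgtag
Bcl6 window 1 holds the STAT5 and BCL6 core at 3 places (TTCCTGGAA, TTCTGTGAA and TTCCGGGAA, beginning 168, 122 and 88 bases before the start), and Bcl6 window 2 holds it at 1 (TTCTCAGAA, 118 bases before). That core occurred in 2 of the 14 windows of these regulators and in 7.02% of the 32851 mouse windows searched, and 3 or more matches occurred in 9 windows (0.0274%). The windows searched left out 1 chromosome and any window not of full length. Cux2 window 1 holds ATCGAT 72 bases before the start, a core found in 0.728% of the windows searched, and the Foxa1 window holds the forkhead core as GTAAACA, its reverse complement, 141 bases before, a core found in 17.8% of them. The C/EBP core occurred in 9.56% of the windows searched and in none of the 14. A match is a run of letters and no evidence of binding.

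In sham mice, Bcl6 RNA was higher in males and Cux2, Tox and Trim24 RNA higher in females. Values are log2 ratios of the first named group over its partner, replicate 1 and then replicate 2. Bcl6 gave 2.16 and 1.63 for sham males over sham females, a mean of 1.89 (3.71-fold). Cux2 gave -2.25 and -1.69, a mean of -1.97, Tox -2.68 and -2.27, a mean of -2.47 (5.55-fold lower), and Trim24 -1.93 and -2.05, a mean of -1.99 (3.98-fold lower). These 4 had both arrays on the same side. No exact fold is given for Cux2, since 2 of 4 sham male channels were not well above background and the scanner's own ratios gave -3.05. Foxa1 gave 0.85 and 0.41 (0.63), Foxa2 -0.33 and -0.89 (-0.61) and Foxa3 -0.03 and 0.31 (0.14). Onecut1 (0.54 and -0.65), Cebpa (0.09 and -0.31) and Cebpb (0.40 and -0.60) had arrays of opposite sign. Of the 10, 5 passed the threshold of adjusted p below 0.05 with both arrays the same way (2 higher and 3 lower in males), beside 8.77% of all genes tested, and nothing is read from that count because the comparison chose members. The counts called in the comparisons that follow use the same threshold.

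Removing the pituitary from males lowered Bcl6, Onecut1, Foxa1 and Cebpb and raised Tox, Trim24 and Cebpa. That is 7 of 10 called, beside 37.4% of all genes, with a median of -0.23 over the 10 and 0.0061 over all genes. This comparison uses the same sham male group as the sex comparison above, with pools of the same sizes, so for Bcl6, Cux2, Tox and Trim24 it is not independent of the difference they were listed for. Bcl6 gave -1.31 and -1.75 in Hypox males over sham males, both below 0, and fell 2.89-fold (-1.53 ± 0.28 SE, limma adjusted p = 8.18e-04). Tox gave 2.22 and 2.08 and rose 4.43-fold (2.15 ± 0.15 SE, adjusted p = 3.79e-07), and its weaker extra probe moved the same way (1.45 and 1.27). Both Tox probes thus lay well above 0 on both arrays. Trim24 gave 0.49 and 0.66 and rose 1.49-fold (0.58, adjusted p = 0.0088), which was 0.44 with adjusted p = 0.174 without replicate 2. Cux2, already low in sham males, gave 0.17 and 0.13 (0.15, adjusted p = 0.428); its probe sat near the background in every group but sham females, and the scanner's own ratios gave 1.45 (adjusted p = 0.00844).

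The liver-enriched factors divided. Onecut1 gave -2.22 and -1.01 in Hypox males and fell 3.06-fold (-1.61, adjusted p = 1.20e-04), with both arrays negative but far apart. Foxa1 gave -1.65 and -0.86 and fell 2.39-fold (-1.25, adjusted p = 1.26e-05), and Cebpb, which drives acute-phase genes, gave -1.62 and -1.39 and fell 2.84-fold (-1.51, adjusted p = 0.00127), with its extra probe at -1.27 and -0.69. Over the channels of all arrays the group levels lay closer. Foxa1 read 9.62 ± 0.52 SD in sham males (4 channels) and 9.25 ± 0.39 in Hypox males (10). Cebpb read 15.43 ± 0.30 and 14.78 ± 0.52. Cebpa rose 1.29-fold (0.19 and 0.54, adjusted p = 0.00924), which was 0.27 with adjusted p = 0.185 without replicate 2. Foxa2 gave -0.84 and 0.34, opposite signs, and was called only without replicate 2 (-0.83, adjusted p = 0.0342), while Foxa3 gave -0.27 and -0.16 (adjusted p = 0.259).

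On the paired arrays, removing the pituitary from females lowered Cux2, Trim24, Onecut1, Foxa1 and Cebpb and raised Cebpa. That is 6 of 10 called, beside 31.1% of all genes, with a median of -0.57 over the 10 and -0.0035 over all genes. This comparison shares the sham females with the sex comparison in the same way. Cux2 gave -2.46 and -1.91 in Hypox females over sham females and fell (-2.19 ± 0.14 SE, adjusted p = 3.52e-07), with -3.13 from the scanner's own ratios. Trim24 gave -1.59 and -1.93 and fell 3.39-fold (-1.76, adjusted p = 4.98e-06). Both lay far below 0 on each array, whereas Tox gave -0.05 and 0.13 (0.04, adjusted p = 0.881) and its extra probe -0.05 and -0.01. Bcl6 gave 1.17 and 0.31, positive on both arrays (0.74, 95% interval 0.14 to 1.34, adjusted p = 0.0581). Onecut1 gave -1.49 and -1.54 and fell 2.86-fold (-1.51, adjusted p = 3.10e-04). Cebpb gave -1.69 and -0.95 and fell 2.5-fold (-1.32, adjusted p = 0.0041), Foxa1 gave -0.64 and -0.52 and fell 1.5-fold (-0.58, adjusted p = 0.00513), and Cebpa gave 0.44 and 0.36 and rose 1.32-fold (0.40, adjusted p = 0.0068). Without replicate 1 Cebpb was -1.0 (adjusted p = 0.121) and Cebpa 0.25 (adjusted p = 0.214), and Foxa1 was -0.61 (adjusted p = 0.054) without replicate 1 and -0.56 (adjusted p = 0.0921) without replicate 2. Foxa2 (-0.76 and -0.37, adjusted p = 0.0828) and Foxa3 (0.14 and 0.16, adjusted p = 0.461) were not called. Over the channels of all arrays Foxa1 had the opposite order. Its log2 level was 8.76 ± 0.31 SD in sham females (4 channels) and 9.08 ± 0.45 in Hypox females (10). Cebpb kept its order, with 15.50 ± 0.47 and 14.93 ± 0.73.

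**Figure D1:**
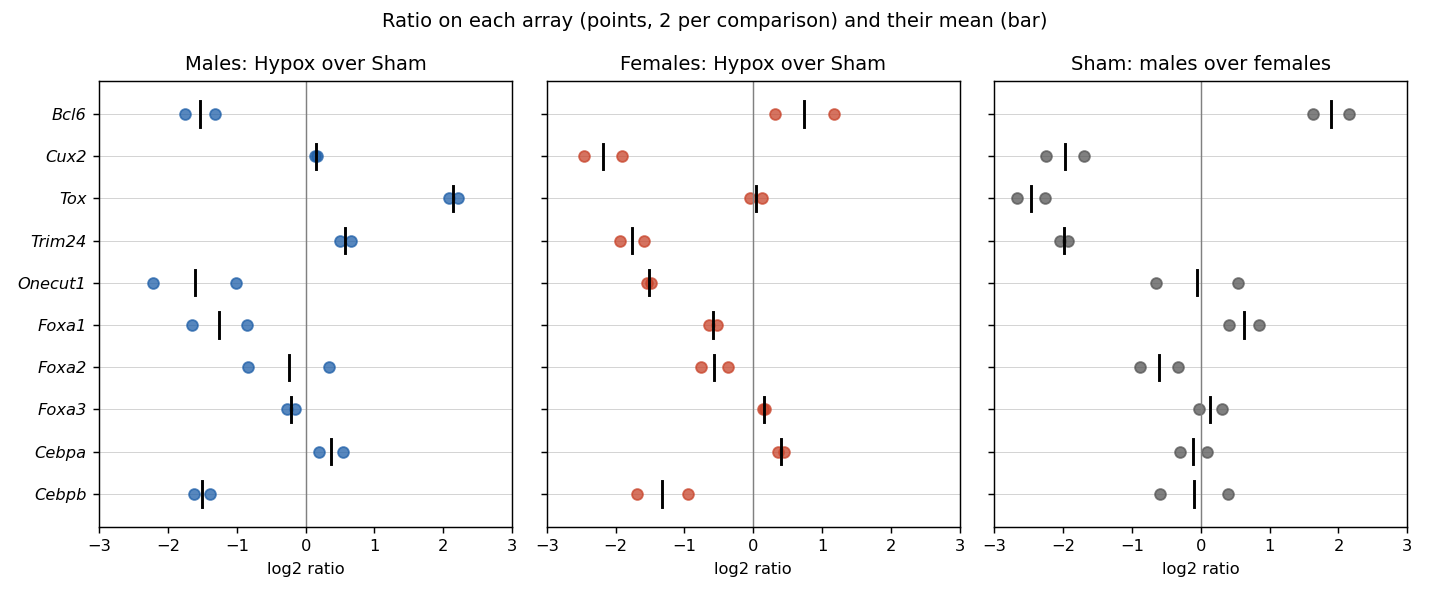
Log2 ratio (x axis) of the 10 regulators (y axis) for Hypox over sham males, Hypox over sham females, and sham males over sham females. Points are the 2 arrays of each comparison and bars their mean. Tox sits at 2.22 and 2.08 in Hypox males and near 0 in Hypox females, and Cux2 sits at -2.46 and -1.91 in Hypox females and near 0 in Hypox males.

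The change after pituitary removal in males minus that in females was -2.28 for Bcl6 (95% interval -3.12 to -1.43), 2.34 for Cux2 (1.92 to 2.75; 4.58 with the scanner's own ratios, which carry no offset), 2.11 for Tox (1.65 to 2.56) and 2.34 for Trim24 (1.88 to 2.80). For these 4 the difference contains the sham sex difference they were listed for and is given without a test. Of the other 6, Foxa1 alone was called (-0.67, adjusted p = 0.0499), and it was -0.34 with adjusted p = 0.505 without replicate 1. The largest of the others in size was Foxa3 (-0.37, 95% interval -0.81 to 0.06), and Onecut1 (-0.10, -0.79 to 0.59) and Cebpb (-0.19, -1.07 to 0.70) had wide intervals around 0. The fit put 5 of 10 past the threshold, beside 6.74% of all genes, and nothing is read from that count because 4 of the 5 are the genes listed for their sham difference.

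**Figure D2:**
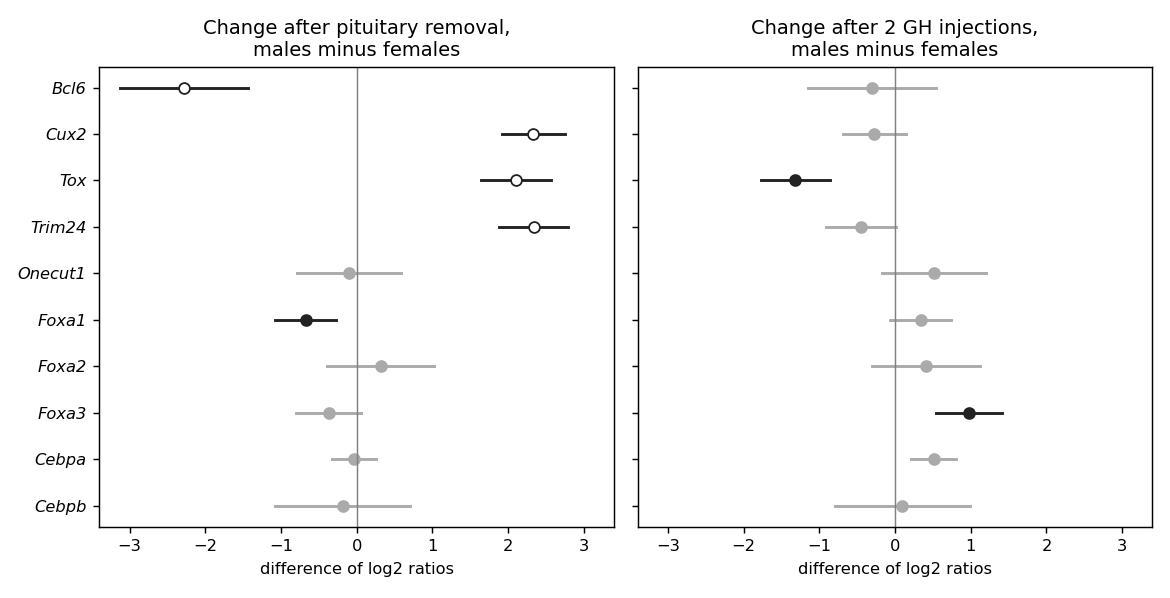
Difference of log2 ratios, males minus females (x axis), with its 95% interval for the change after pituitary removal and for the change after 2 GH injections; rows are the 10 regulators, dark points passed adjusted p below 0.05, grey points did not, and open points were not tested because the genes were listed for their sham sex difference. After 2 injections Tox (-1.32) and Foxa3 (0.97) are the dark points.

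By limma none of the 10 was called between Hypox males and Hypox females, beside 1.63% of all genes, and 2 had an unadjusted p below 0.05 (Tox and Trim24). Tox gave -0.47 and -0.56 in Hypox males over Hypox females (-0.51, adjusted p = 0.106) and Trim24 0.25 and 0.64 (0.45, adjusted p = 0.161). The sign for Tox was that of the sham comparison, and the sign for Trim24 was the opposite. A fit that joins all arrays into 1 loop called both (Tox -0.51, adjusted p = 0.00989, and Trim24 0.40, adjusted p = 0.0292). That fit also draws on the sham arrays, among them the sex comparison for which Tox and Trim24 were listed. Its calls are therefore not independent of the listing. Bcl6 gave -0.19 and -0.16 (-0.18, 95% interval -0.77 to 0.42) and Cux2 a mean of 0.01 (-0.29 to 0.30). In mice killed 30 min after GH none was called between males and females by limma, beside 0.504% of all genes, and 1 had an unadjusted p below 0.05: Tox gave -0.75 and -0.41 (-0.58, adjusted p = 0.122). The same loop fit, with the same limit, called it (-0.53, adjusted p = 0.0253).

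Normalised log2 levels place each regulator in all 10 groups, and a level is set here only against other groups of the same probe. Bcl6 stood highest in sham males (13.90 ± 0.22 SD, 4 channels) and lowest after 2 injections in males (10.53 and 11.98), with Hypox females at 12.75 ± 0.32 and Hypox males at 12.45 ± 0.30 (10 channels each) and sham females at 11.97 ± 0.49 (4 channels). The sham male channels, from 13.71 to 14.13, did not overlap any other group, while the 7 groups from Hypox females (12.75) down to sham females (11.97) lay within their spread of a neighbour. Cux2 stood at 9.25 ± 0.50 in sham females (8.71 to 9.81) and its mean lay between 6.38 and 6.77 in the 9 other groups, whose order is within their spread; 2 of 4 sham male channels were not well above background. Cux2 was thus high in sham females only among the 10 groups. Tox was lowest in sham males (8.01 ± 0.24) and in males after 2 injections (8.47 and 8.46), then in females after 2 injections (9.60 and 9.40), and its other 7 group means ran from 9.98 in Hypox males to 10.80 in females 90 min after GH, with sham females at 10.57 ± 0.07. Trim24 was highest in sham females (14.01 ± 0.07) and lowest in sham males (12.04 ± 0.15), next to Hypox females (12.24 ± 0.22), whose range overlapped that of sham males. Where livers differ in a value, fewer cells of a type and less RNA per cell cannot be told apart.

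**Figure D3:**
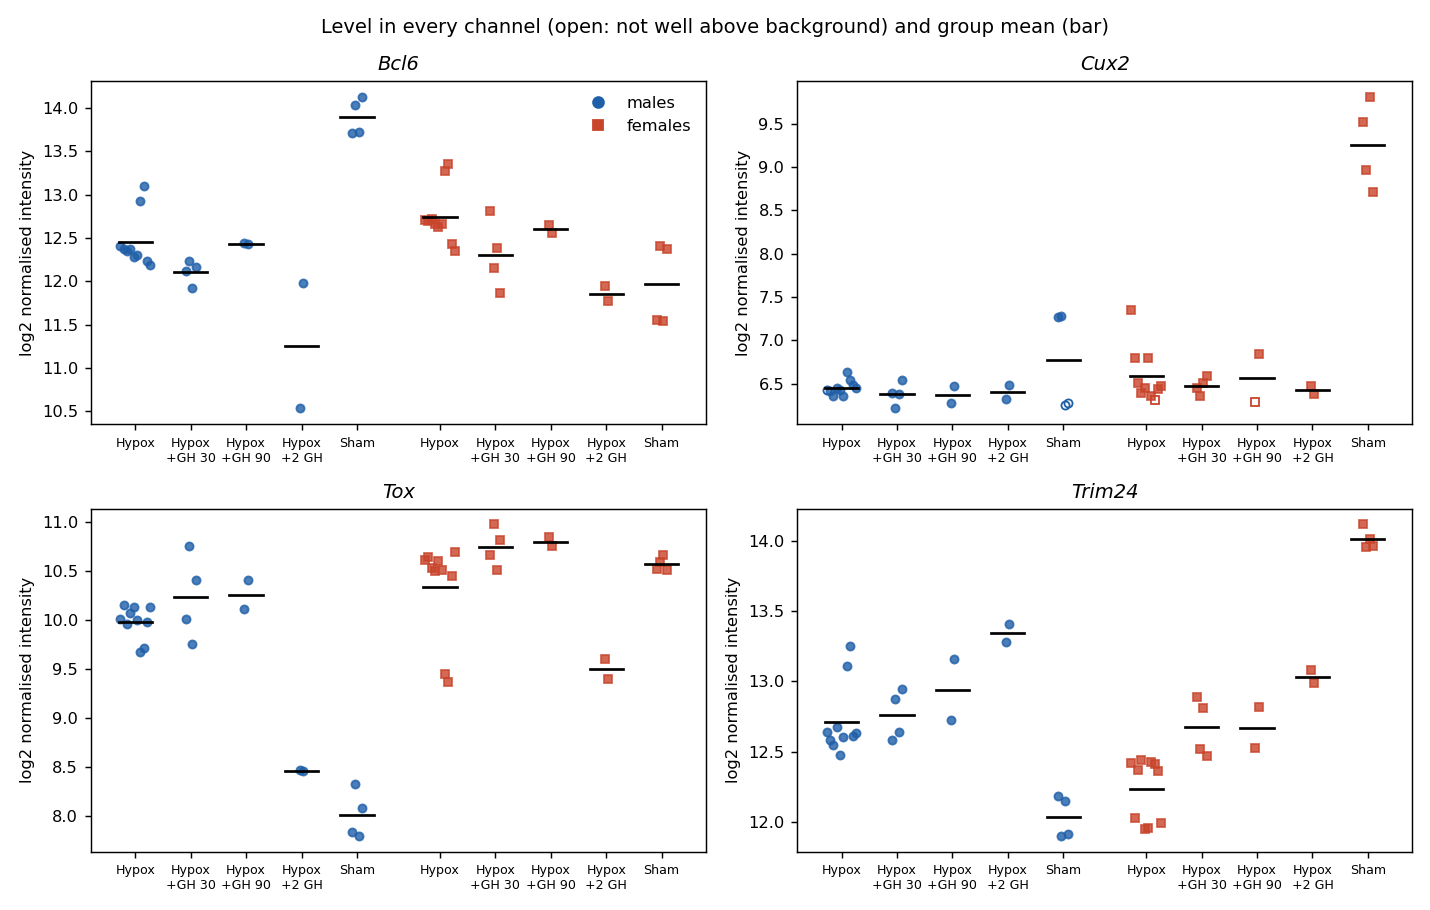
Log2 normalised intensity (y axis) of Bcl6, Cux2, Tox and Trim24 in every channel, by group (x axis), with males as blue circles, females as red squares, open symbols for channels not well above background and bars for group means. Cux2 reads 8.71 to 9.81 in sham females and its mean is at most 6.77 elsewhere; Bcl6 is at or above 13.71 in sham males.

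At 30 min after 1 GH injection, none of the 10 regulators was called by limma in males, beside 2.5% of all genes, nor in females, beside 0.0191%. At an unadjusted p below 0.05 there was 1 in males (Tox) and 1 in females (Foxa1). These comparisons, like those at 90 min and after 2 injections, are set against the Hypox group of the same sex, which they share. Bcl6 gave -0.24 and -0.14 in males (-0.19, 95% interval -0.79 to 0.41) and 0.10 and -0.51 in females (-0.20, -0.80 to 0.39). Tox gave 0.06 and 0.69 in males and 0.13 and 0.48 in females, positive on all 4 arrays but not called. Onecut1 gave 0.42 and 0.39 in males (adjusted p = 0.371) and -0.09 and 0.05 in females. The test of the difference between the sexes called 0 of 10 at this time, beside 0.00764% of all genes, and 0 at an unadjusted p below 0.05.

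At 90 min after 1 injection, Foxa1 rose in both sexes. It gave 1.45 and 1.46 in males (2.75-fold, adjusted p = 9.87e-05) and 1.33 and 1.42 in females (2.59-fold, adjusted p = 2.44e-04), so all 4 arrays lay within a narrow band. The difference between the sexes was 0.08 (95% interval -0.32 to 0.49). Over other settings that keep both arrays, Foxa1 ran from 1.46 to 1.52 in males and from 1.37 to 1.95 in females. Its female call was lost when those arrays were fitted alone (1.37). Foxa1 at 90 min exceeded its 30-min value by 1.22 in males (adjusted p = 0.00868) and by 1.09 in females (adjusted p = 0.0468). Leaving out the same replicate of both times gave 1.14 to 1.29 in males and 1.04 to 1.14 in females, and the calls were lost. Onecut1 gave 1.22 and 1.53 in males and rose 2.6-fold (1.38, adjusted p = 0.00405), and gave 0.64 and 0.90 in females (0.77, adjusted p = 0.0961). Its male call was lost without either array (1.4, adjusted p = 0.11, and 1.35, adjusted p = 0.0931), its sex difference was 0.61 (95% interval -0.08 to 1.29), and its value at 90 min was not called against 30 min in males (0.97, adjusted p = 0.126) or females (0.79, adjusted p = 0.506). Trim24 gave 0.58 and 0.86 in females and rose 1.64-fold (0.72, adjusted p = 0.023), against 0.25 and 0.55 in males (0.40, adjusted p = 0.163). The female value was 0.92 (adjusted p = 0.053) without replicate 1 and 0.52 (adjusted p = 0.522) without replicate 2.

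At 90 min, then, 2 of 10 were called in males (Onecut1 and Foxa1), beside 4.98% of all genes, and 2 of 10 in females (Trim24 and Foxa1), beside 3.17%. The test of the sex difference called 0 of 10, beside 0.00764% of all genes, with Cebpb at an unadjusted p below 0.05 (1 of 10; 1.01, adjusted p = 0.435). Between 30 and 90 min only Foxa1 was called, 1 of 10 in males beside 2.46% of all genes and 1 of 10 in females beside 0.153%. Bcl6 lay near 0 on all 4 arrays (0.16 and 0.13 in males, 0.02 and -0.10 in females), and Cux2 averaged -0.01 in males and -0.06 in females. Foxa2 was positive on all 4 arrays (0.38 and 0.81 in males, 0.70 and 0.42 in females) without passing the test (adjusted p = 0.184 and 0.267). Its probe is spotted 10 times on each array, and the SD over those spots was at most 0.05, against gaps of up to 1.18 between paired arrays. Cebpb gave -0.97 and -0.86 in females (-0.92, adjusted p = 0.127) and 0.42 and -0.22 in males.

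**Figure D4:**
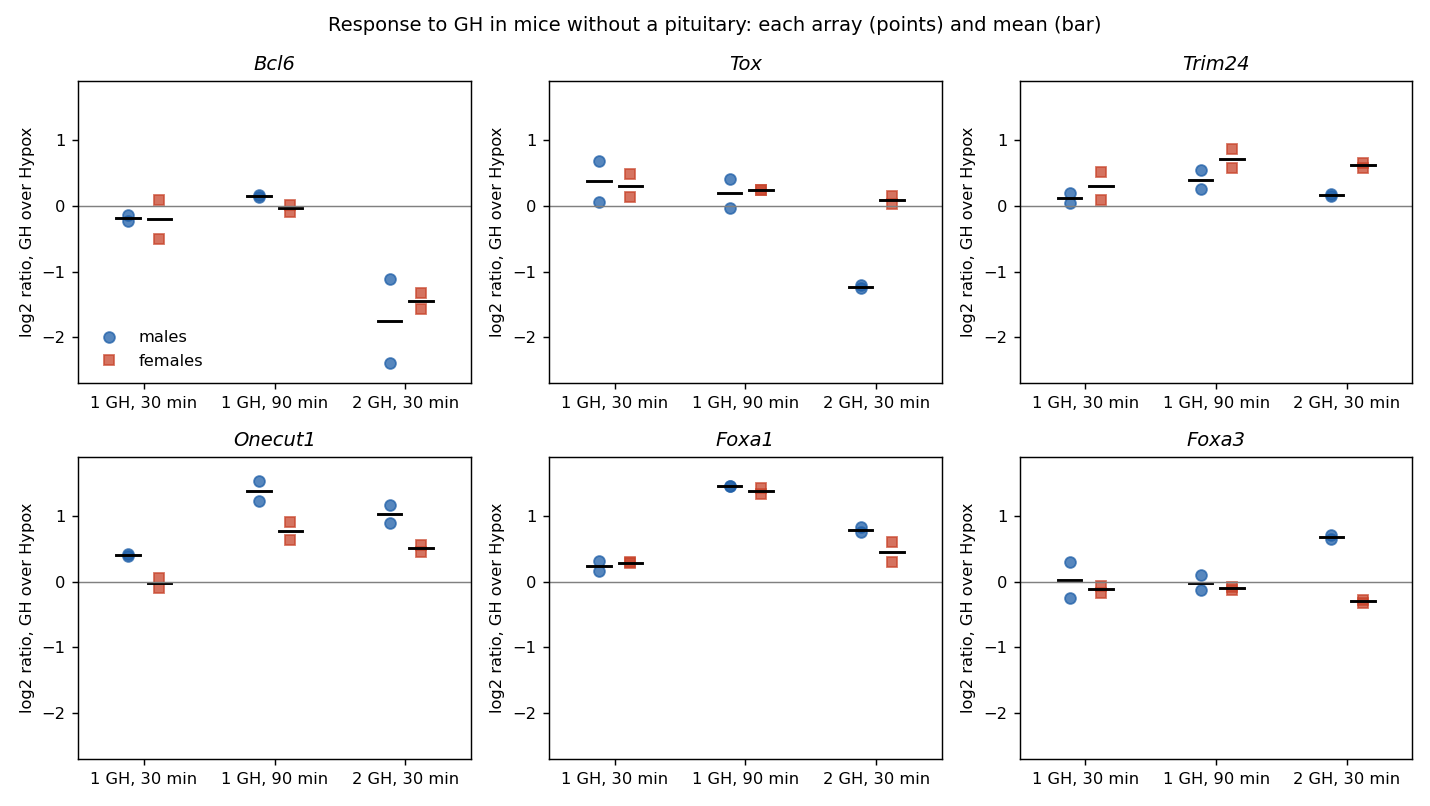
Log2 ratio over Hypox mice of the same sex (y axis) for Bcl6, Tox, Trim24, Onecut1, Foxa1 and Foxa3 at 30 min after 1 GH injection, 90 min after 1 injection and 30 min after 2 injections (x axis), males as blue circles and females as red squares, 1 point per array. Foxa1 reads 1.33 to 1.46 at 90 min in both sexes, and Bcl6 is below -1.1 on all 4 arrays after 2 injections and between -0.51 and 0.16 earlier.

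After 2 injections Bcl6 fell in both sexes. It gave -2.40 and -1.12 in males (3.38-fold lower, -1.76 ± 0.28 SE, adjusted p = 7.17e-04) and -1.33 and -1.58 in females (2.74-fold lower, -1.45, adjusted p = 0.009), and the sexes did not differ by the test of the difference (-0.30, 95% interval -1.15 to 0.54). The male call was lost without replicate 1 (-1.0, adjusted p = 0.0595; -2.52 without replicate 2), and the female call without either array (-1.53, adjusted p = 0.122, and -1.38, adjusted p = 0.2). Set against the Hypox channels of other arrays the differences were smaller, -1.06 in males and -0.75 in females, with all 4 Bcl6 values after 2 injections (10.53 and 11.98, 11.94 and 11.77) below every Hypox channel. Compared with 30 min after 1 injection, the difference of ratios was -1.57 in males (adjusted p = 0.0187; -0.98 with adjusted p = 0.161 without replicate 1) and -1.25 in females (adjusted p = 0.134).

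Tox fell in males after 2 injections, with -1.21 and -1.25 (2.34-fold lower, adjusted p = 1.28e-04), and gave 0.15 and 0.03 in females (0.09, adjusted p = 0.802). The extra probe gave -0.81 and -0.99 in males and 0.20 and -0.04 in females. The sex difference was -1.32 (adjusted p = 0.0159). That call was lost without replicate 1 of both sexes (-1.28) and without replicate 2 of both (-1.36). The Hypox female channels of those arrays read 9.45 and 9.37, against 10.45 to 10.69 in the 8 other channels. Against the other arrays' Hypox channels Tox stood at -1.59 in males and -1.06 in females, a sex difference of -0.53. Relative to 30 min after 1 injection the difference in males was -1.60 (adjusted p = 6.39e-04).

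Onecut1, Foxa1, Foxa3 and Cebpa rose in males after 2 injections. Onecut1 gave 1.16 and 0.89 (1.02, adjusted p = 0.00626; 0.73 with adjusted p = 0.215 without replicate 1), and Foxa1 gave 0.82 and 0.75 (0.79, adjusted p = 0.00113; 0.65 with adjusted p = 0.0701 without replicate 1). Against the Hypox channels of other arrays Onecut1 stood at 1.56 in males and 1.0 in females, and Foxa1 at 1.09 in males and 0.93 in females. Foxa3 gave 0.70 and 0.64 (0.67, adjusted p = 0.00499), a call lost without either array (0.66, adjusted p = 0.0987, and 0.68, adjusted p = 0.0672). Cebpa gave 0.17 and 0.53 (0.35, adjusted p = 0.0217), also lost without either (0.45, adjusted p = 0.0869, and 0.25, adjusted p = 0.333). At 30 and 90 min the male means of Foxa3 had been 0.03 and -0.02, not called. In females Foxa3 gave -0.28 and -0.32 (-0.30, adjusted p = 0.235), and the sexes differed by 0.97 (adjusted p = 0.0349). That sex difference was no longer called without replicate 1 of both sexes (0.96) or without replicate 2 of both (0.98). Against the Hypox channels of other arrays Foxa3 was at 1.15 in males and 0.04 in females. Between 2 injections and 30 min after 1, Foxa3 in males differed by 0.65 (adjusted p = 0.0485). This call too was lost without replicate 1 of both comparisons (0.89) and without replicate 2 of both (0.40).

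Trim24 rose in females after 2 injections, with 0.65 and 0.58 (1.53-fold, adjusted p = 0.0264; 0.62 with adjusted p = 0.255 and 0.61 with adjusted p = 0.279 without each array), and gave 0.17 and 0.16 in males. Its sex difference was -0.45 (95% interval -0.91 to 0.01), and against other arrays' Hypox channels Trim24 stood at 0.75 in males and 0.84 in females. Female values of Onecut1 (0.56 and 0.45, adjusted p = 0.201) and Foxa1 (0.30 and 0.60, adjusted p = 0.0551) were positive without passing. Cux2 gave means of -0.19 in males and 0.09 in females, and its 6 means after GH in all ran from -0.19 to 0.09 with none called. Cebpb gave -0.11 and -0.70 in males and -0.28 and -0.72 in females, not called, and its sign turned against the Hypox channels of other arrays (0.63 in males and 0.53 in females).

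In all, 6 of 10 were called after 2 injections in males (4 higher, 2 lower), beside 19.3% of all genes, and 2 of 10 in females (Trim24 higher, Bcl6 lower), beside 8.43%. The sexes differed in 2 of 10 (Tox and Foxa3), beside 1.97% of all genes. From 30 min after 1 injection to 2 injections 3 of 10 differed in males (Bcl6, Tox and Foxa3), beside 14.6% of all genes, and 0 in females, beside 1.41%, with 1 at an unadjusted p below 0.05 (Bcl6).

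Among 13254 named genes well above background, those whose 11 fitted ratios correlated most with Bcl6 were Krt17 (r = 0.959), Nhej1 (0.932), Bdnf (0.922), Rpgrip1l (0.921) and Phkg2 (0.911). The most opposite were Ccnd1, which encodes cyclin D1 (-0.941), Sugp1 (-0.92) and Ppfia2 (-0.914). The ratios of Krt17 were smaller in size, with 0.38 in sham males over females, against 1.89 for Bcl6. The genes most like Cux2 were Ncmap (0.988), Trim24 (0.982), Gna15 (0.969), Cdx4 (0.966) and Radx (0.962), and the most opposite Lactb (-0.973), Lap3 (-0.962) and Appl1 (-0.959). Ncmap gave -1.87 in sham males over females and -2.04 in Hypox over sham females, while Gna15 gave only -0.24 and -0.29. Onecut1 and Foxa1 correlated at 0.93, and Bcl6 at -0.72 with Cux2 and -0.74 with Trim24. The 11 ratios share groups and arrays, and these coefficients describe them only. Among the 11 is the sham sex ratio for which Bcl6, Cux2, Tox and Trim24 were listed. The coefficients between those genes are therefore not independent of the listing.

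Of 13 family members tested, 3 rose and 4 fell in Hypox males, where 37.4% of all genes were called, and 3 rose and 3 fell in Hypox females, where 31.1% were. This list and those that follow are read against the all-gene share of each comparison. In sham mice that share was 8.77%. After GH it was 2.5% in males and 0.0191% in females at 30 min, 4.98% and 3.17% at 90 min, and 19.3% and 8.43% after 2 injections. Tox3 rose in both Hypox males and Hypox females (2.10 and 2.92), as did Bcl6b, a close relative of Bcl6 (1.44 and 0.79), and Ddit3 (0.73 and 1.01), while Foxo1, a forkhead factor restrained by insulin, fell (-0.65 and -0.89). After 2 injections in males 3 rose and 1 fell, among them Onecut2 (0.83) and Foxo1 (-0.50). Of 12 corepressors that BCL6 can recruit, Rcor1 and Ncor1 fell in Hypox males (-1.05 and -0.58) and Hypox females (-1.09 and -0.76), within counts of 3 up and 3 down in males and 2 up and 4 down in females. Both were called higher 30 min after GH in males (Rcor1 0.81, adjusted p = 0.024, and Ncor1 0.50, adjusted p = 0.028), a time at which no regulator was. Corepressor medians lay between -0.06 and 0.07 in the 8 comparisons that involve pituitary removal or GH within a sex, beside all-gene medians between -0.0085 and 0.0148.

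Of 22 other liver transcription factors, beside the same 37.4% and 31.1% of all genes, 4 rose and 6 fell in Hypox males (Tef 2.53 and Dbp 2.34, both clock-output factors, Ppara -1.30, Esr1 -1.20) and 3 rose and 8 fell in Hypox females (Esr1, the oestrogen receptor, -3.13, Dbp 2.38, Tef 1.95, Ppara -1.68). Of 18 genes of GH signalling, 3 rose and 6 fell in Hypox males and 1 rose and 5 fell in Hypox females, including Socs2 (-2.55 and -3.81), Cish (-2.41 and -4.14) and Igf1 (-2.46 and -3.25). Socs2, a feedback inhibitor of STAT5 signalling, was already up 30 min after GH (2.22 in males, adjusted p = 0.02, and 2.97 in females, adjusted p = 0.027), before any of the 10 regulators was called. At 90 min 4 of the 18 were up in each sex, with Cish at 4.17 in both and Socs2 at 3.33 and 3.89, and after 2 injections 5 were up and 1 down in males and 4 up in females.

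The output genes were listed with their sex bias known, so their sham counts are descriptive: 24 of 25 female-biased genes were lower and 19 of 20 male-biased genes higher in sham males, with medians of -2.55 and 2.7. In Hypox males 14 of the 25 female-biased genes rose and 3 fell (median 1.37, Hao2 5.68, Cyp2b9 3.71), in the comparison in which Bcl6 fell and Tox rose, and 19 of 20 male-biased genes fell (median -2.16, Mup1 -7.04). In Hypox females 17 female-biased genes fell and 1 rose (median -1.41, Sult3a1 -8.70), where Cux2 and Trim24 fell, and 10 male-biased genes fell while 2 rose, among them Cyp4a12a (3.92). After 2 injections 4 female-biased genes rose and 5 fell in males and 8 rose in females. Whether the regulators bear on these genes was not tested.

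Markers of other tissues moved in some of the same comparisons. Of 9 skeletal muscle markers, 7 fell in Hypox males (median -2.83, summed level 1340 to 8200 in Hypox males against 11600 to 39700 in sham males) and 8 fell in females after 2 injections (median -3.16, summed level 6970 to 8640 against 1670 to 74300 in all Hypox female channels). In sham males over sham females the muscle markers had a median of 2.71, with 2 called higher and 2.29 and 2.83 on the 2 arrays. After GH in males they were high on 1 array of each pair, with medians of 3.11 and -0.04 at 30 min, 2.18 and 0.05 at 90 min and -0.01 and 2.95 after 2 injections. After 2 injections in males 4 of 5 pancreas markers were up (median 1.98, with 0.60 and 3.36 on the 2 arrays, summed level 751 to 30900 against 590 to 2450 in Hypox males). Of 7 T cell markers 4 rose in Hypox males (median 0.37, summed level 1210 to 1590 against 906 to 981 in sham males), in the comparison in which Tox rose by 2.15, and none was called in males after 2 injections (median -0.03), where Tox fell. Of 6 B cell markers 5 rose in Hypox males (median 0.41, summed level 1680 to 1980 against 691 to 813 in sham males), where Bcl6 fell, and 4 in Hypox females (median 0.33, summed level 1240 to 1790, above every sham female channel). The B cell genes Ms4a1 and Cd79b gave 1.83 and 1.81 in Hypox males. Of 3 erythroid markers, 2 fell in Hypox males (median -1.11, summed level 58600 to 93500 against 136000 to 165000 in sham males), and 2 fell and 1 rose in Hypox females (median -1.13). Of 5 macrophage and Kupffer cell markers, 2 were lower in sham males than in sham females (median -0.61, with -0.48 and -0.77 on the 2 arrays). No neutrophil marker was called at 90 min. Their summed level there was 11600 to 11800 in males, against 2380 to 9200 in Hypox males. In females it was 16300 to 20800, against 1990 to 14300 in Hypox females. The part of these tissues and cells in the results was not tested. Of 5 hepatocyte markers tested, none was called in sham mice, 2 fell in Hypox males and 1 rose and 1 fell in Hypox females. Their medians on the 2 arrays were 0.18 and -0.05 in sham mice, -0.72 and -0.06 in Hypox males, and -0.77 and 0.52 in Hypox females. The paired arrays thus disagreed on these markers.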

How the data were processed

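Liver RNA was compared on 22 Agilent 2-colour arrays. The authors deposited scanner files with, by their headers, a mean signal and a median background intensity for every spot and channel, and a log10 ratio of the processed signals from Feature Extraction 9.5.1.1 or 9.5.3.1. Their deposited table of log2 ratios (normalized, per the labels) was matched to the scanner files within 0.005; 6 columns matched the file of the same label and 16 the other replicate, and the scanner files' numbering was used. Depth has no counterpart here: 2 arrays a comparison limit the precision.

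Intensities were background-corrected (normexp, offset 50, which shrinks ratios of dim probes such as Cux2) and loess-normalised within arrays in R 4.3.3 with limma 3.58.1, leaving out control and outlier spots. Ratios were oriented by the labelled dyes. The probe of highest mean intensity stood for a gene name. One limma model over all 22 arrays, with a coefficient for each of the 11 comparisons and a dye term, was adjusted by Benjamini-Hochberg over all genes in each comparison; differences of ratios are contrasts of it (residual df 10). A result was called at adjusted p below 0.05 with both arrays on the same side. Levels are channel intensities after loess and Aquantile. The model was tested on simulated data. The members and all gene lists were chosen with earlier results of these data known. Named genes are the members, up to 4 called genes a list with the largest ratios, and the 5 most and 3 least correlated genes for Bcl6 and Cux2. RefSeq supplied symbols and promoter windows; the array build is not given in the sources used here.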

Additional observations from a re-analysis of the deposited data

Results flagged for a closer look

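Among the 60 sets of 4 to 10 channels tested for a value far from its group, 2 had one, where chance gives about 1 in 20. Cux2 read 7.36 in the Hypox female channel of the replicate 1 array against sham females, the highest of 10 Hypox female channels. Cebpa read 9.65 in the Hypox female channel of the replicate 2 array of the 90-min comparison, the lowest of 10.

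The change after pituitary removal, males minus females, was -2.28 for Bcl6, 2.34 for Cux2, 2.11 for Tox and 2.34 for Trim24. These 4 values contain the sham sex difference for which the genes were listed and are not counted as passing a test. By the test of the difference the response of the sexes differed in Foxa1 after pituitary removal (-0.67), and in Tox (-1.32) and Foxa3 (0.97) after 2 GH injections. Among other settings that keep both arrays, the Foxa1 call held in 4 of 11, the Tox call in 10 of 12 and the Foxa3 call in 8 of 12. The Foxa1 difference was -0.34 without replicate 1 and -1.01 without replicate 2. Against the Hypox channels of other arrays the Tox difference was -0.53 and the Foxa3 difference 1.11, with no test.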

How the results depend on the processing

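Over 14 settings, 2381 of 2490 values of 180 results kept their side of the threshold, 89 lost a call, 20 gained one and 0 called values changed sign. Values never called could change sign and still count as kept. The 180 include the sex difference after pituitary removal of Bcl6, Cux2, Tox and Trim24, which is given without a test. The causes of the changes were not tested. With the scanner's own log ratios, which carry no offset, Cux2 was -3.05 in sham males over females and 1.45 in Hypox over sham males. Median centring in place of loess gave 1 regulator called at 90 min and 2 after 2 injections in males, and 4 and 0 in females, with Bcl6 at -1.32 after 2 injections in females, -1.45 for 2 injections minus 30 min in males and -2.18 for the sex difference after pituitary removal. Fitting each comparison's arrays alone left 0 called at 90 min in females. It lost Bcl6 in males after 2 injections (-1.76) and for 2 injections minus 30 min (-1.57). The Bcl6 sex difference after pituitary removal, given without a test, was -2.28 in that setting. The loop model called Bcl6 in Hypox females (0.68), and 2 regulators between Hypox sexes and 1 between sexes 30 min after GH. These loop estimates draw on the sham sex comparison for which the genes were listed. Against Hypox channels of other arrays, chosen after seeing the data, Bcl6 after 2 injections in females was -0.75, Cux2 was -0.23 there and 0.21 as the sex difference. Leaving out 1 array gave 3 to 5 regulators called in sham mice, 1 in males and 1 in females at 90 min, 1 to 4 in males and 0 in females after 2 injections and 3 to 5 in Hypox females. Bcl6 then ran from -2.52 to -1.0 after 2 injections in males and -1.53 to -1.38 in females. For a difference of ratios, the same replicate was left out of both comparisons at once. Bcl6 in that case ran from -2.16 to -0.98 for 2 injections minus 30 min in males and -2.49 to -2.07 for the sex difference after pituitary removal.

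Whether the replicate numbers pair the arrays was not settled. The correlation of deviations ran from -0.36 to 0.87 over 55 pairs (median 0, 20 above 0.1). A pool shared by 2 comparisons can give either sign, so the median cannot decide it. A replicate block left 198 entries unchanged. Among them are sham ratios judged by the spread between arrays and counts of called regulators judged by their ratio. The block lost 3 calls by limma: Foxa1 at 90 minus 30 min in females (1.09, adjusted p = 0.0585), Foxa1 in the sex difference after pituitary removal (-0.67, adjusted p = 0.0552) and Foxa3 in males at 2 injections minus 30 min (0.65, adjusted p = 0.0578). Slide and scan day as random blocks had estimated correlations of -0.052 and 0. Genes called among all tested, with the range over settings, were 2297 (424 to 4117) in sham mice, 9783 (2991 to 12284) and 8143 (1897 to 9699) in Hypox males and females, 656 (0 to 767) and 5 (0 to 163) at 30 min, 1305 (120 to 1691) and 829 (5 to 1114) at 90 min, 5049 (454 to 5548) and 2208 (81 to 2811) after 2 injections, 427 (8 to 2617) between Hypox sexes and 132 (0 to 913) between sexes 30 min after GH.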

Other observations

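The arrays form loops, so the ratio of Hypox males over Hypox females was measured directly and also by way of the sham mice. For Bcl6 the direct value minus the value around the loop was 0.21, for Cux2 -0.35, for Tox -0.15 and for Trim24 0.10 on the log2 scale, where the median size of this gap over all genes was 0.08. Ccnd1, the cyclin D1 gene whose ratios ran most opposite to those of Bcl6, gave -1.65 in sham males over females, 0.59 in Hypox over sham males, -0.75 in Hypox over sham females and 0.68 after 2 injections in males.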
